A study of Mus musculus with 36 samples.

Results

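Transcripts of 8 milk protein genes were followed in macrophages washed from the lungs of newborn and older mice. The genes are the caseins Csn1s1, Csn1s2a, Csn1s2b, Csn2 and Csn3, the whey protein genes Wap and Lalba, and Glycam1. A gene was represented by the array feature annotated with its symbol alone, and each of the 8 genes had exactly 1 such feature among the 28940 features analysed, of which 21218 carried exactly 1 symbol.

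Milk proteins are made by the secretory epithelium of the mammary gland during pregnancy and lactation, under the control of prolactin, which acts through the transcription factor STAT5. Caseins bind calcium and phosphate and assemble into micelles, whereas Wap and Lalba encode soluble proteins of the whey. Outside the mammary gland their transcripts are usually scarce, although Glycam1 is also known from the high endothelial venules of lymph nodes, where it carries ligands for L-selectin.

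The study hybridised 36 Affymetrix Mouse Gene 1.0 ST arrays, and each value is a log2 intensity. All mice were male C57Bl/6N Tac animals, either wild type (WT) or transgenic (Tg) for Scnn1b, a gene of the epithelial sodium channel ENaC, which the transgene overexpresses in airway club cells, and WT mice were littermates. In specific-pathogen-free (SPF) housing, each genotype was sampled at postnatal day (PND) 0 with 3 arrays, and with 4 arrays at each of PND 3, PND 10 and PND 42, while germ-free (GF) mice were sampled at PND 42 with 3 arrays per genotype. Arrays of PND 0, PND 3 and PND 10 each held RNA from the pooled cells of 3 pups, and arrays of PND 42 held RNA from single mice. Lavage cells of every group were depleted of Ly-6G positive granulocytes, and no positive selection for macrophages was made, so that other Ly-6G negative cells in the fluid remained.

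Array medians lay between 3.72 and 4.06. Scnn1b, the transgene's product, was measured at 10.23 and 10.33 in Tg replicates 1 and 2 of PND 0, but at 5.47 in the library labelled Tg PND 0 replicate 3, within the WT range of 4.06 to 6.68. For the 8 genes and for the counts of each gene list, the limma results that use the Tg PND 0 pools are therefore given with and without that library, whose value stands last wherever 3 Tg values are listed. At PND 3 the Tg minus WT difference of Scnn1b was 2.45 (limma adjusted p = 0.0113). It was not called at PND 10 (0.61), PND 42 SPF (0.18) or PND 42 GF (0.68). The mean of 22 skeletal muscle genes was 4.81 in the library labelled Tg replicate 3 and 3.34 to 3.61 in WT pools. In Tg replicates 1 and 2 it was 5.80 and 5.54. Whether that library's label is right was not tested. Of 14 macrophage genes, the mean log2 intensity was between 8.09 and 9.21 in all PND 0 pools, so that macrophage RNA was present in each of them. In these bulk samples, fewer cells of a type and less RNA per cell cannot be told apart.

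RefSeq (GRCm38.p6) gave promoter windows, from 250 bases before to 50 bases after the gene's start, for 6 of the 8 genes. STAT5 is known to bind the palindrome TTCNNNGAA, which reads the same on both strands and was the only motif searched. It was found in 4 of the 6 windows (Csn1s1, Csn1s2a, Csn2 and Glycam1) and not in those of Wap and Lalba, while 2726 of all 32851 windows of the same length (8.30%) held it. A match is a description of the letters and not a measured binding site, and the array data hold no measure of binding. The stretches below are shown because they carry the motif in genes that were higher in Tg pools at PND 0, with the motif in capitals, beside that of Wap, which was higher as well and has no match. All are written 5′ to 3′ on the strand of the gene and end at the base before its start, except the 30 bases of Csn1s2a, in which the motif begins 21 bases into the transcribed part.
Csn1s1, chr5:87665958-87666207, plus strand: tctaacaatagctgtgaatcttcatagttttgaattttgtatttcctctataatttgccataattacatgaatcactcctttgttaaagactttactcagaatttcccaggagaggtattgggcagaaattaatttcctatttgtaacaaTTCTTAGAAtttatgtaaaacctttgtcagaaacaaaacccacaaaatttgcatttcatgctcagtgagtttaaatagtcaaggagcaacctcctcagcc
Csn2, chr5:87699426-87699675, minus strand: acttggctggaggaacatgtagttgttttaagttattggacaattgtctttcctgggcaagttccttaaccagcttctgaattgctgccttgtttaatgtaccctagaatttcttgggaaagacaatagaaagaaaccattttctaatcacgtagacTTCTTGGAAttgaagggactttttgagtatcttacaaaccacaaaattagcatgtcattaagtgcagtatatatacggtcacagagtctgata
Glycam1, chr15:103565082-103565331, minus strand: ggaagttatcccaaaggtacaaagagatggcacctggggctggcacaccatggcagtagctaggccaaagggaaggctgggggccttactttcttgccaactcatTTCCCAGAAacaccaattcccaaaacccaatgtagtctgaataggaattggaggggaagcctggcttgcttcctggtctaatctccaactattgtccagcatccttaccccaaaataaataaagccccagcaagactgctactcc
Csn1s2a, chr5:87774460-87774489, plus strand: ttatagtgctTTCTTAGAAttacaatgact
Wap, chr11:6638650-6638899, minus strand: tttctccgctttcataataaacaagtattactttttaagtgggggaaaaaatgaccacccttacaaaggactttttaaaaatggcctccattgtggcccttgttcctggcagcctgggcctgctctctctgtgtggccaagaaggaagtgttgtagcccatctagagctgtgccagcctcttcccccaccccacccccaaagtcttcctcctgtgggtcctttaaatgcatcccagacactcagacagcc
The motif begins 100 bases before the start in Csn1s1, 93 in Csn2 and 145 in Glycam1.

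At birth the transcripts of 7 of the 8 genes were more abundant in Tg than in WT lavage cells, 6 of them by 4.52-fold to 16.9-fold and Csn1s2b by 1.27-fold. Lalba did not pass the test. By limma, 7 of 8 were higher and 0 lower, where 2.74% of all features were higher at the same adjusted p, and without the library labelled Tg replicate 3 it was 6 of 8 against 3.11%. The median difference of the 8 genes was 3.23 on the log2 scale, against -0.02 for all features, and without that library it was 1.80 against -0.03. In 7 of the 8 genes every Tg pool was above every WT pool, where 4.21% of all features were so ordered. The transcripts were unequal among the pools labelled Tg, which differed by up to 5.61 on the log2 scale (Csn1s1 in replicate 2 and in the library labelled replicate 3), and by up to 2.60 between replicates 1 and 2.

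**Figure D1:**
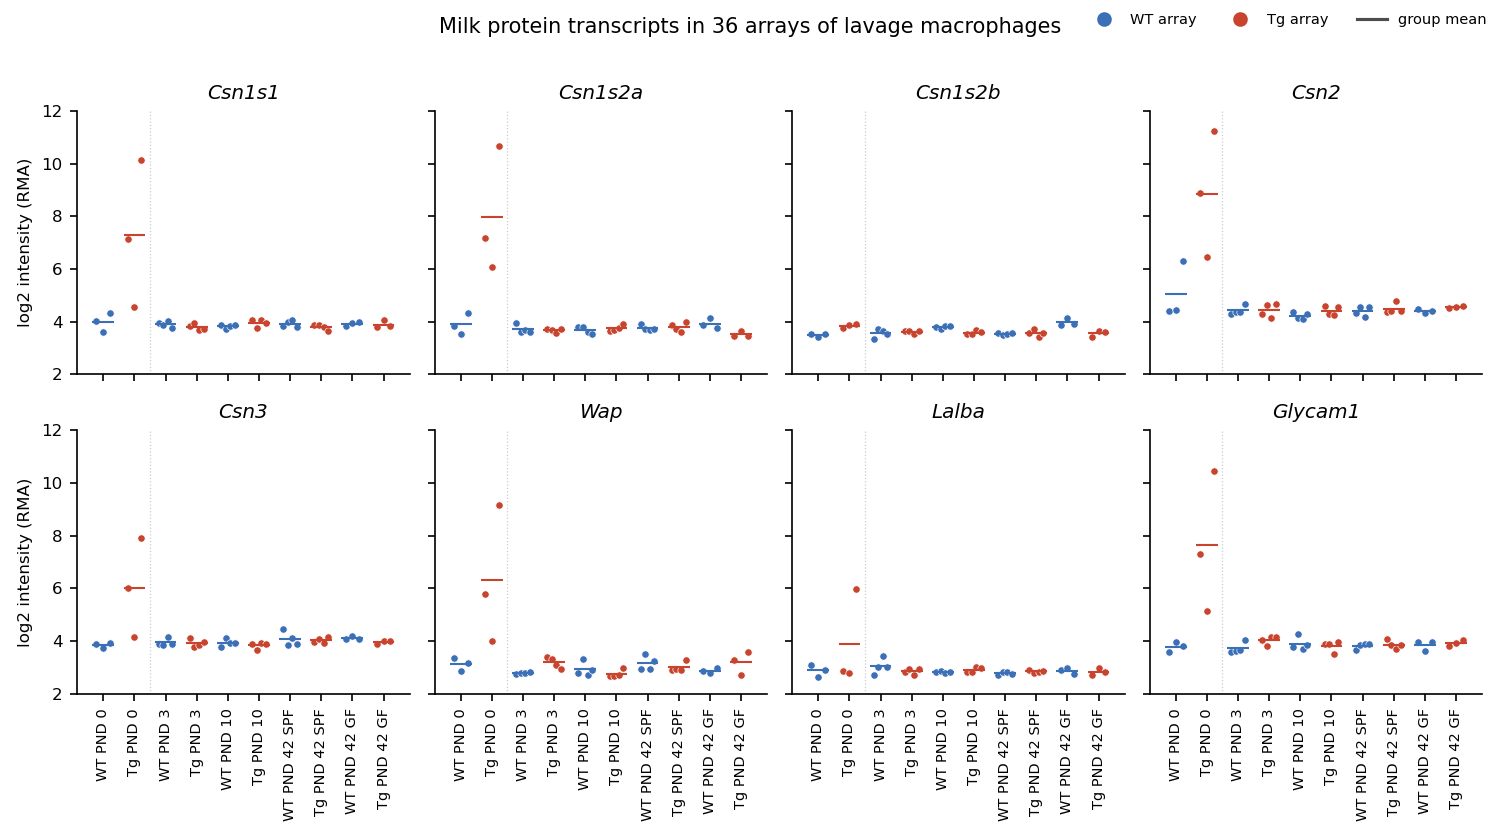
Log2 intensity (y axis) of each milk protein transcript in every array, by group (x axis), with WT arrays in blue, Tg arrays in red and the group mean as a line. The Tg pools of PND 0 reach 11.23 for Csn2, whereas no array of a later age exceeds 4.77 for any of the 8 genes.

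Csn1s1 encodes alpha-s1-casein, a calcium-binding protein of the micelle's core. It was measured at 4.01, 3.63 and 4.32 in WT replicates 1, 2 and 3, and at 7.15, 4.54 and 10.16 in Tg replicates 1, 2 and 3. Every Tg pool was above every WT pool, although Tg replicate 2 exceeded the highest WT pool by 0.22. The difference of the group means was 3.30 ± 0.61 (SE, n = 3 pools per genotype; limma adjusted p = 0.00138), and 1.86 without the library labelled Tg replicate 3 (adjusted p = 0.00112). Here and below, each SE comes from a variance that limma pools over all 10 groups. Among the Csn1s1 pools the SD was 2.81 in Tg and 0.35 in WT, so the Tg pools spread more widely than this SE conveys. Where leaving out the library labelled Tg replicate 3 lowers the pooled variance, an adjusted p can fall although the difference shrinks. Only Tg replicates 1 and 2 then remain in the group, so a smaller adjusted p is not stronger evidence.

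Csn1s2a encodes an alpha-s2-type casein. Its log2 intensity was 3.83, 3.54 and 4.35 in the WT pools and 7.20, 6.07 and 10.69 in the Tg pools. The groups were separated by 1.72 between the lowest Tg and the highest WT pool, the widest such gap among the 8 genes. The difference was 4.08 ± 0.53 (SE, n = 3; adjusted p = 1.77e-05 by limma), and 2.72 without the library labelled Tg replicate 3 (adjusted p = 2.78e-10). Csn1s2b, the paralogous casein gene beside it, was measured at 3.54, 3.43 and 3.55 in WT pools and at 3.75, 3.87 and 3.93 in Tg pools. All Tg values were above the WT values but within the range of the 30 later arrays, which reached 4.14. Its difference of 0.35 ± 0.09 (SE, n = 3) had a limma adjusted p of 0.0267, and 0.0893 without the library labelled Tg replicate 3.

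Csn2 encodes beta-casein, a main casein of mouse milk. In WT pools it was at 4.40, 4.45 and 6.33, and in Tg pools at 8.91, 6.46 and 11.23. WT replicate 3 was well above both remaining WT pools, exceeded the highest later array by 1.55 and came within 0.14 of Tg replicate 2. The difference was 3.81 ± 0.57 (SE, n = 3; limma adjusted p = 0.000137), and 2.63 without the library labelled Tg replicate 3 (adjusted p = 0.000221). Csn3 encodes kappa-casein, which coats the micelle and keeps it in suspension. It was measured at 3.87, 3.74 and 3.93 in WT pools and at 6.02, 4.13 and 7.91 in Tg pools. Tg replicate 2 lay within the range of the later arrays, whose highest value was 4.44. The difference was 2.18 ± 0.42 (SE, n = 3; limma adjusted p = 0.00208), and 1.23 without the library labelled Tg replicate 3 (adjusted p = 0.00541).

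Among the whey proteins, Wap, the whey acidic protein with WAP-type domains of protease inhibitors, was measured at 3.37, 2.87 and 3.17 in WT pools and at 5.77, 3.98 and 9.15 in Tg pools. All Tg pools exceeded the WT pools as well as the 30 later arrays. The difference was 3.17 ± 0.59 (SE, n = 3; limma adjusted p = 0.00138), and 1.74 without the library labelled Tg replicate 3 (adjusted p = 0.000405). Lalba encodes alpha-lactalbumin, the regulatory subunit of lactose synthase. It was at 3.10, 2.63 and 2.91 in WT pools and at 2.86, 2.79 and 5.97 in Tg pools. A single pool, the library labelled Tg replicate 3, was above the WT range, and the remaining Tg pools lay inside it. The difference of 1.00 ± 0.41 (SE, n = 3) did not pass the test (limma adjusted p = 0.182), and it was -0.053 without that library (adjusted p = 0.91).

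Glycam1 encodes a mucin-like glycoprotein of the milk whey. Its log2 intensity was 3.58, 3.97 and 3.81 in WT pools and 7.29, 5.15 and 10.45 in Tg pools. The lowest Tg pool was 1.18 above the highest WT pool. The difference was 3.84 ± 0.59 (SE, n = 3; limma adjusted p = 0.000154), and 2.43 without the library labelled Tg replicate 3 (adjusted p = 5.32e-06). For each of the 7 genes whose groups did not overlap, the exact two-sided permutation test gave p = 0.1, the smallest that 3 pools against 3 allow, and for Lalba it gave 0.7. The calls therefore rest on the variance that limma pools over all 10 groups: in a limma fit of the 6 PND 0 arrays alone, 0 of 8 genes were called (adjusted p of 0.851 to 0.891), 6 of 8 had an unadjusted p under 0.05, and 0 of all 28940 features passed. Apart from Csn2, the WT means lay between 2.88 and 3.99, near or below the array medians, so fold changes computed from them may understate the difference in transcript. The WT mean of Csn2 was 5.06, above the array medians, with WT replicate 3 at 6.33.

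**Figure D2:**
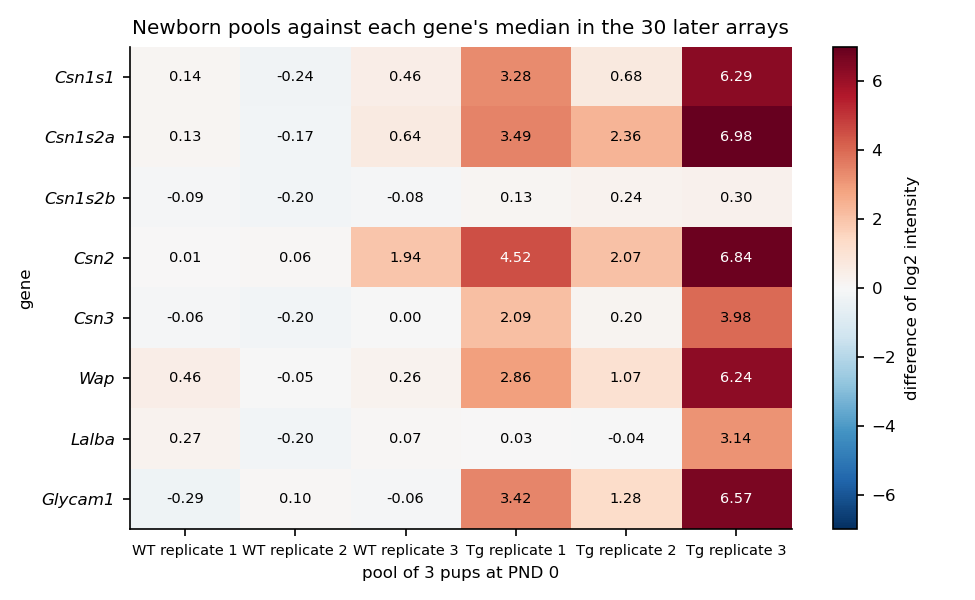
Difference of log2 intensity between each PND 0 pool (x axis) and the median of the same gene (y axis) in the 30 arrays of later ages, printed in each cell. The library labelled Tg replicate 3 is highest for all 8 genes, and Tg replicate 2 is lowest of the Tg pools in 7 of 8.

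Pool by pool, the 8 transcripts kept much the same order in the Tg samples. The library labelled Tg replicate 3 was the highest of the 6 PND 0 pools for 8 of 8 genes, where it was the highest for 13.3% of all features. Replicate 1 came next and replicate 2 last in 7 of 8 genes, and Csn1s2b was the exception. From replicate 2 to the library labelled replicate 3 the log2 intensity differed by 5.61 for Csn1s1, 5.30 for Glycam1, 5.17 for Wap, 4.77 for Csn2, 4.63 for Csn1s2a, 3.78 for Csn3 and 3.18 for Lalba. Between replicates 1 and 2 these differences ran from 0.08 for Lalba to 2.60 for Csn1s1, with Csn1s2b at -0.11.

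The number of genes above each of the 30 later arrays was 7 of 8 in the library labelled Tg replicate 3, 6 in Tg replicate 1, 5 in Tg replicate 2, 3 in WT replicate 3 and 0 in WT replicates 1 and 2. Of all features, 13.9% lay above each later array in the library labelled Tg replicate 3, 16.2% in Tg replicate 1, 14.1% in Tg replicate 2, and at least 12.3% in each WT pool. In 5 of the 8 genes (Csn1s1, Csn1s2a, Csn2, Wap and Glycam1) every Tg pool was above all later arrays of both genotypes, which held for 7.74% of all features. The 3 genes above the later range in WT replicate 3 were Csn1s1, Csn1s2a and Csn2, which exceeded their highest later array by 0.24, 0.19 and 1.55 on the log2 scale. In that pool Csn3, Csn1s2b, Wap, Lalba and Glycam1 were within the later range. The median over the 8 genes of the distance from their own later median was 6.26 in the library labelled Tg replicate 3, 3.07 in Tg replicate 1, 0.87 in Tg replicate 2 and 0.17 in WT replicate 3. Over the 6 pools, Pearson's r between pairs of the 7 genes other than Csn1s2b ran from 0.78 (Csn2 with Lalba) to 1.00 (Csn1s1 with Csn3), a description of 6 points that share their arrays and are dominated by the library labelled Tg replicate 3.

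In Tg mice the transcripts were lower by the third day of life. All 8 genes were called lower at PND 3 than at PND 0 by limma, where 14.0% of all features were lower. This comparison shares the Tg PND 0 pools with the genotype comparison. The fall was not particular to the milk proteins. Of the gene lists described below, 10 of 10 fibroblast, 17 of 22 skeletal muscle, 8 of 12 erythroid and 10 of 19 mammary gland genes were lower as well. Of 14 neighbours of the casein genes 0 were lower. Csn2 fell by 4.43 ± 0.54 (SE; 3 pools of PND 0 and 4 of PND 3; adjusted p = 9.25e-08), from a mean of 8.87 ± 2.38 to 4.44 ± 0.26 (SD). Csn1s2a fell by 4.31 ± 0.50 (adjusted p = 3.85e-08), Glycam1 fell by 3.59 ± 0.55 (4.55e-06) and Csn1s1 fell by 3.49 ± 0.57 (1.30e-05). Wap fell by 3.11 ± 0.55 (adjusted p = 3.72e-05) and Csn3 fell by 2.10 ± 0.39 (8.40e-05), whereas Lalba fell by 1.02 ± 0.38 (0.0396) and Csn1s2b fell by 0.22 ± 0.09 (0.0485).

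Without the library labelled Tg PND 0 replicate 3, 6 of the 8 genes were called lower by limma, where 13.4% of all features were. The falls were then smaller, those of Glycam1, Csn1s1, Wap and Csn3 by over 1.5 times. Csn2 fell by 3.25 ± 0.40 (SE; adjusted p = 1.92e-07), Csn1s2a fell by 2.95 ± 0.20 (1.09e-12) and Glycam1 fell by 2.18 ± 0.29 (6.60e-07). Csn1s1 fell by 2.05 ± 0.33 (adjusted p = 1.01e-05), Wap fell by 1.69 ± 0.28 (1.90e-05) and Csn3 fell by 1.16 ± 0.25 (0.000636). The call of Lalba rested on that library, and without it the difference was 0.024 ± 0.13 (adjusted p = 0.927). That of Csn1s2b was -0.19 ± 0.10 (adjusted p = 0.18) and no longer passed. In this fit 9 of 10 fibroblast, 19 of 22 skeletal muscle, 7 of 12 erythroid and 10 of 19 mammary gland genes were lower. Of 14 neighbours of the casein genes 0 were.

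In WT mice 0 of 8 genes were called lower or higher at PND 3 by limma, and 0 had an unadjusted p under 0.05, where 12.0% of all features were lower. Csn2 had the largest difference, -0.63 ± 0.54 (SE; adjusted p = 0.476), with WT pools of PND 3 between 4.30 and 4.68. The remaining 7 genes differed by -0.36 to 0.17, each with an SE of 0.09 to 0.57. The difference between genotypes was larger at PND 0 than at PND 3 in 6 of 8 genes by the interaction term in limma (1.58% of all features), by 4.12 ± 0.70 (SE) for Csn1s2a (adjusted p = 0.00085), 3.80 ± 0.76 for Csn2 (0.00396), 3.52 ± 0.77 for Glycam1 (0.00878), 3.40 ± 0.81 for Csn1s1 (0.0155), 2.21 ± 0.56 for Csn3 (0.0226) and 2.76 ± 0.78 for Wap (0.0442). Csn1s2b (0.29 ± 0.12, adjusted p = 0.237) and Lalba (1.20 ± 0.54, adjusted p = 0.273) did not pass this test. Without the library labelled Tg replicate 3 the same 6 genes passed (1.92% of all features), with differences of 2.77 for Csn1s2a, 2.62 for Csn2, 2.11 for Glycam1, 1.96 for Csn1s1, 1.33 for Wap and 1.26 for Csn3 (adjusted p of 6.05e-08 to 0.0411).

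**Figure D3:**
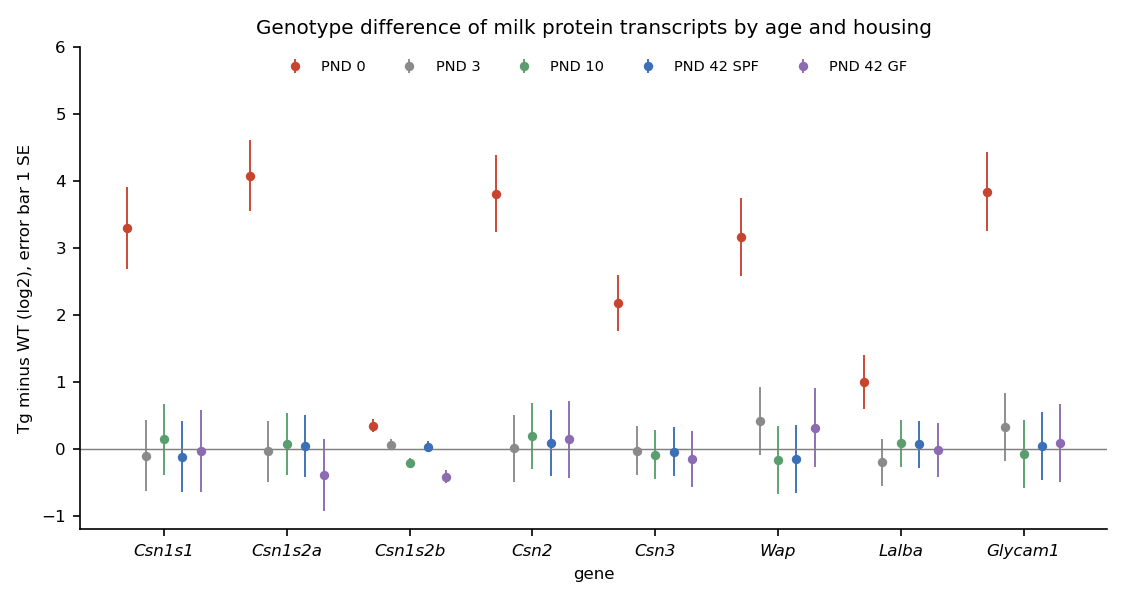
Tg minus WT difference of log2 intensity (y axis) for each gene (x axis) at PND 0, PND 3, PND 10 and PND 42 in SPF and GF housing, with error bars of 1 SE from limma. At PND 0 the difference reaches 4.08, and at the later ages it lies between -0.42 and 0.41.

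From PND 3 onward the transcripts were low in both genotypes and both housings. At PND 3, 0 of 8 genes differed between Tg and WT (4.05% of all features did, in either direction), at PND 10 it was 0 of 8 (1.57%), at PND 42 in SPF housing 0 of 8 (4.49%) and at PND 42 in GF housing 1 of 8 (4.91%). At an unadjusted p under 0.05 the counts by limma were 0, 1, 0 and 1. Over the 30 later arrays, the lowest, median and highest log2 intensity was 4.12, 4.39 and 4.77 for Csn2. These values were 3.64, 3.87 and 4.08 for Csn1s1, 3.46, 3.71 and 4.15 for Csn1s2a, and 3.66, 3.93 and 4.44 for Csn3. For each of these 4 caseins the SD over the later arrays was between 0.12 and 0.17, and no difference between genotypes at these ages was called for them. Some groups of 3 or 4 arrays did not overlap, among them Csn1s2a in GF mice, at 3.76 to 4.15 in WT and 3.46 to 3.66 in Tg. In GF mice Csn3 was also lower in Tg (3.88 to 4.01, WT 4.06 to 4.17), whereas Csn2 was higher in Tg (4.54 to 4.59, WT 4.35 to 4.48). At PND 3 Wap was higher in every Tg pool (2.95 to 3.41) than in any WT pool (2.75 to 2.82). That difference of 0.41 was not called (limma adjusted p = 0.874). How many of all features separate in this way at later ages was not counted.

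The lowest, median and highest of the later arrays were 2.65, 2.91 and 3.57 for Wap and 2.70, 2.83 and 3.44 for Lalba. For Glycam1 they were 3.52, 3.87 and 4.25. In 7 of the 8 genes the highest group mean was that of Tg PND 0, and Csn1s2b was again the exception. The group next in order was WT PND 0 for Csn1s1 (3.99) and Csn2 (5.06), WT PND 42 GF for Csn1s2a (3.92) and Csn3 (4.11), Tg PND 3 for Wap (3.19) and Glycam1 (4.05), and WT PND 3 for Lalba (3.05). For Csn1s1, Csn1s2a, Csn2, Wap and Glycam1 the arrays of Tg PND 0 did not overlap those of the next group. Among all other neighbours in the order, the only pair that did not overlap was WT PND 10 above Tg PND 3 for Csn1s2b, with a difference of 0.18 in their means. How many of all features had their highest mean in Tg PND 0, or neighbours that did not overlap, was not counted.

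Csn1s2b had its highest mean, 3.98 ± 0.14 (SD, n = 3), in WT mice of GF housing at PND 42. The single arrays were at 3.88, 4.14 and 3.92, against 3.42, 3.65 and 3.61 in Tg mice of the same housing. The groups did not overlap, and Csn1s2b was lower in Tg mice by 0.42 ± 0.09 on the log2 scale (SE; limma adjusted p = 0.00459). This call was lost without WT GF replicate 2 and in a fit of these 2 groups alone. At PND 10 the WT pools, from 3.74 to 3.84, were above the Tg pools, from 3.52 to 3.70, but the difference of -0.21 ± 0.08 (SE, n = 4) did not pass the limma test (adjusted p = 0.241). In size these differences were like that of Csn1s2b at PND 0, which had the opposite sign.

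**Figure D4:**
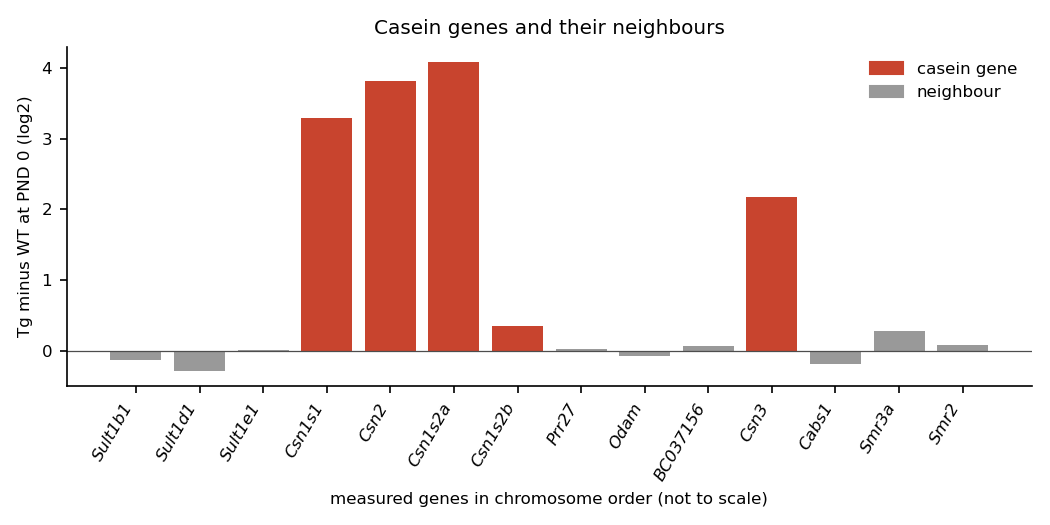
Tg minus WT difference of mean log2 intensity at PND 0 (y axis, n = 3 pools per genotype) for the casein genes (red) and the protein-coding genes around them (grey) in chromosome order (x axis, not to scale). Csn1s1, Csn2, Csn1s2a and Csn3 lie between 2.18 and 4.08, and the neighbours between -0.28 and 0.28.

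The 5 casein genes lie together on chromosome 5, whereas Wap is on chromosome 11 and Lalba and Glycam1 are on chromosome 15. Between Csn1s2b and Csn3 RefSeq lists Prr27, Odam and BC037156, with Tg minus WT differences of 0.03, -0.07 and 0.06 at PND 0. The sulfotransferase genes on the side of Csn1s1 had differences of 0.01 (Sult1e1), -0.28 (Sult1d1) and -0.14 (Sult1b1), and Cabs1, Smr3a and Smr2 on the side of Csn3 had -0.18, 0.28 and 0.07. Of 14 measured non-casein genes around the cluster, 0 were called at PND 0 by limma (2 had an unadjusted p under 0.05), with a median difference of -0.09.

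Other genes known from lactation were examined in 3 lists, whose counts stand against the 2.74% of all features that were higher at PND 0 and the 3.11% without the library labelled Tg replicate 3. Of 8 other secreted milk proteins measured, 2 were higher in Tg pools at PND 0 and 0 lower (median 0.29), and without that library 0 were called by limma (median 0.19). Wfdc18, which encodes a small WAP-domain protein also expressed in the mammary gland, was at 5.01, 3.97 and 4.49 in WT pools and 5.44, 4.98 and 8.68 in Tg pools. The library labelled Tg replicate 3 stood far above the others, and Tg replicate 2 overlapped the WT pools (difference 1.88 ± 0.49, SE, n = 3; limma adjusted p = 0.0225). Without that library the difference was 0.72 ± 0.27 and was not called (adjusted p = 0.13). Pigr, the receptor that carries IgA across epithelia, was higher by 0.74 ± 0.21 (limma adjusted p = 0.0404), and without that library the difference was 0.75 ± 0.24 (adjusted p = 0.0713). It was at 3.73, 5.05 and 4.51 in WT pools and 5.71, 4.65 and 5.15 in Tg pools, so Tg replicate 2 lay within the WT range. Lactoferrin (Ltf), transferrin (Trf), lactoperoxidase (Lpo) and B4galt1, the galactosyltransferase that Lalba turns to lactose synthesis, were not called.

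Of 15 genes of milk fat synthesis and the fat globule membrane, 2 were higher and 0 lower (median 0.13), and 2 were higher without the library labelled Tg replicate 3 (Fabp3 and Cidea, median 0.043). Cidea was at 2.71, 2.63 and 2.78 in WT pools and 5.45, 2.75 and 2.74 in Tg pools. Its call thus rested on Tg replicate 1, and Tg replicate 2 lay within the WT range. Fabp3, a fatty acid carrier of mammary gland and muscle, was at 4.16, 4.14 and 5.71 in WT pools and 6.29, 5.84 and 7.72 in Tg pools. Here too the library labelled Tg replicate 3 was highest and WT replicate 3 highest of the WT pools (difference 1.95 ± 0.41, SE, n = 3; limma adjusted p = 0.00463, and 1.40 ± 0.40 with adjusted p = 0.0413 without the library labelled Tg replicate 3). Thrsp, a regulator of lipid synthesis, was higher by 0.89 ± 0.25 (adjusted p = 0.0395), and without that library the difference was 0.75 ± 0.28 (adjusted p = 0.132). Its values were 2.56, 2.82 and 3.62 in WT pools and 4.51, 2.99 and 4.15 in Tg pools, with Tg replicate 2 again within the WT range. Btn1a1, which encodes butyrophilin of the fat globule, was at 4.28 in the library labelled Tg replicate 3 and between 3.23 and 3.59 in the other PND 0 pools, and it was not called. Xdh, Plin2, Fasn and Lpl, which also act outside the mammary gland, were not called either.

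Of 19 hormone receptors, transcription factors and epithelial genes of the mammary gland, 1 was higher and 0 lower at PND 0 (median 0.25), and 2 were higher without the library labelled Tg replicate 3 (Elf5 and Cldn7, median 0.31). The gene called in both fits was Elf5, a factor of the mammary alveolar lineage that lung epithelium also uses, at 5.27, 4.75 and 6.46 in WT pools and 6.70, 6.65 and 6.66 in Tg pools. Unlike the milk proteins, Elf5 was nearly equal among the Tg pools (difference 1.17 ± 0.24, SE, n = 3; limma adjusted p = 0.00298, and 1.18 ± 0.27 with adjusted p = 0.00792 without the library labelled Tg replicate 3). The luminal keratins Krt8 and Krt18, the tight junction genes Cldn3 and Cldn7, Stat5a, Stat5b, Esr1 and Pgr were not called with all pools, and the prolactin receptor Prlr had no feature under its symbol alone. In the library labelled Tg replicate 3, highest for the milk proteins, 1 of these 19 genes had its highest value, and 10 had it in Tg replicate 1. Of all features, 13.3% were highest in the library labelled Tg replicate 3 and 16.7% in Tg replicate 1.

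**Figure D5:**
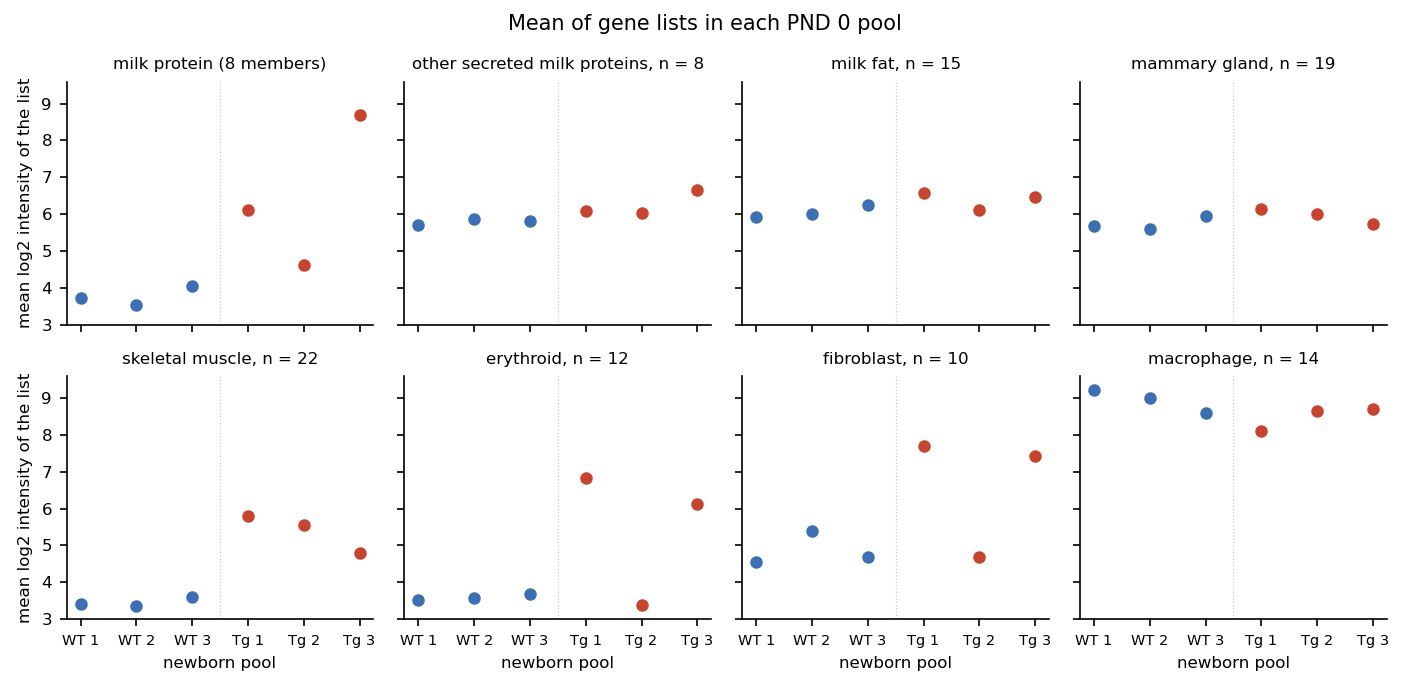
Mean log2 intensity (y axis) of 8 gene lists in each PND 0 pool (x axis), with WT pools in blue and Tg pools in red, where n is the number of genes measured. The milk protein mean is highest, at 8.69, in the library labelled Tg replicate 3, whereas the muscle, erythroid and fibroblast means are highest in Tg replicate 1.

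Markers of other tissues also differed between the newborn pools, and their part in the milk protein result was not tested. The counts of higher genes below stand against 2.74% of all features. Of 22 skeletal muscle genes, 16 were higher in Tg pools and 0 lower (median 1.81), among them Tnnc2 (4.85), Acta1 (4.70), Tnnt3 (3.68) and Mylpf (3.45). The muscle mean was 3.34 to 3.61 in WT pools and 5.80, 5.54 and 4.81 in Tg replicates 1, 2 and the library labelled replicate 3, an order that differed from that of the milk proteins. Of 12 erythroid genes 7 were higher and 0 lower (median 1.94), led by Slc4a1 (4.08), Tspo2 (3.11), Trim10 (2.60) and Hba-x (2.32). Their mean was 3.52 to 3.67 in WT pools and 6.83, 3.39 and 6.13 in the Tg pools, so that Tg replicate 2 was below the WT pools. Of 10 fibroblast genes 8 were higher and 0 lower (median 1.89), led by Mfap5 (2.56), Meox2 (2.49), Postn (2.27) and Lum (2.16). Their mean was 4.56 to 5.38 in WT pools and 7.71, 4.69 and 7.43 in the Tg pools.

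Without the library labelled Tg replicate 3, 19 of the 22 muscle genes were higher (median 2.23), 6 of the 12 erythroid genes (1.65) and 4 of the 10 fibroblast genes (1.44), and of those named Hba-x and Postn were not called. Of all features, 3.11% were then higher. Of 14 macrophage genes 3 were lower in Tg pools and 0 higher (median -0.41), namely Siglecf (-0.79), Pparg (-0.72) and Mrc1 (-0.42), and 6 were lower without that library, Mrc1 not among them. This list and the next stand against 460 of all 28940 features that were lower with all pools, and 512 (1.77%) without that library. Of 15 squamous epithelial genes 2 were lower, Lce3a (-2.12) and Krt13 (-1.25), and 0 higher, and the same 2 were called without that library. No gene was called at PND 0 by limma among 8 salivary gland genes (0 called, median 0.04), 9 stomach genes (0, -0.13) and 7 genes of high endothelial venules (0, 0.09), and 0, 3 and 0 of them had an unadjusted p under 0.05. None of these 3 lists, nor the neighbours of the casein genes, held a call without that library. The venule mean, of interest for Glycam1, was 3.26 to 3.56 in WT pools and 3.35 to 3.55 in Tg pools.

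Among features with 1 symbol, the one most like the mean of the 8 milk protein genes over the 36 arrays was Chga, which encodes chromogranin A of endocrine secretory granules (Pearson's r = 0.96, and 0.96 over the 6 PND 0 pools). Chga was at 3.25, 3.66 and 2.91 in WT pools and 4.65, 3.64 and 7.78 in Tg pools. It was highest in the library labelled Tg replicate 3, and Tg replicate 2 was within the WT range. Next were a feature of Hmcn1 (r = 0.96), 1 of 77 features with that symbol, Rtl3 (0.93), Smim41 (0.93), Apoa1 (0.93), Hhip (0.92), Pdgfd (0.92) and Car3 (0.92). Apoa1, the main apolipoprotein of HDL, kept the same order, at 4.13, 3.16 and 5.27 in Tg replicates 1, 2 and the library labelled replicate 3 against 2.92 to 3.13 in WT pools. Car3, a carbonic anhydrase of muscle and fat, was at 8.79, 3.31 and 8.72, and so differed from the milk proteins in the order of Tg replicate 1 and the library labelled replicate 3. These correlations describe 36 points that share arrays, and they rest on few PND 0 pools.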

How the data were processed

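RNA of lavage macrophages, 12 ng per array, was amplified and hybridised by the authors to 36 arrays. Per the submitters' processing notes, the deposited log2 intensities were made with RMA in Partek 6.5, and the study's methods describe background adjustment, quantile normalization and median polish. Of 35556 features, 6616 without annotation, presumed array controls, were left out, and 0 columns were unused. Groups came from the labelled genotype, age and housing, 10 in all, each fitted with 1 mean in limma 3.58.1 (R 4.3.3), and 8 contrasts were drawn. P-values were two-sided and adjusted by Benjamini-Hochberg over all 28940 features, and calls were made at an adjusted p under 0.05. Quantile normalization sets every array to 1 distribution, so that values are relative to the other transcripts of a sample, and amplification of so little RNA can add to the spread between arrays.

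The labels call the arrays biological replicates, and the limma p-values of the main fit rest on a spread averaged over all 10 groups. For Csn1s1 the SD was 2.81 among the Tg PND 0 pools but 0.12 over the later arrays. Where the Tg PND 0 pools were so unequal, these p-values do not reflect how far those pools differed. A limma fit of the PND 0 arrays alone called 0 of the 8 genes. The number of arrays limits the precision. No 2 arrays held identical values (0 pairs). The fit was tested on simulated data with known changes, in which all groups of a feature had the same spread. Such data could not test calls for genes whose Tg PND 0 pools spread more widely than the other groups.

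The 8 genes and the gene lists were chosen with earlier results of these data known. From each list, the genes named are those called at PND 0, up to the 4 with the largest difference, and list members named as not called, or as called in a fit without 1 library, were chosen after their values were seen. Genes of like pattern are the 8 features with 1 symbol, other than predicted or clone names, of highest Pearson r with the mean of the 8 genes. Values and figures were prepared in Python 3.11.15. Alternatives were another call limit, a fit of the compared groups alone, weights, renormalization, median centring, another variance prior, no moderation, a filter on dim features, all features kept, 1 feature per gene, a replicate block, and leaving out each array. The replicate numbers were checked for pairing: 1 of 18 same-numbered pairs of arrays had deviations that correlated above 0.1 (r from -0.13 to 0.24), so that the numbers were not taken to pair the samples.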

Additional observations from a re-analysis of the deposited data

Results flagged for a closer look

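The difference between genotypes was larger at PND 0 than at PND 3 for 6 of the 8 genes by the interaction term in limma. On the log2 scale the excess was 3.40 for Csn1s1, 4.12 for Csn1s2a, 3.80 for Csn2, 2.21 for Csn3, 3.52 for Glycam1 and 2.76 for Wap. In 6 of 48 groups of 4 arrays, 1 value stood apart from the others of its group, where chance gives about 1 in 20. All 6 are of ages after PND 0 and are small: 3.54 for Csn1s2b in Tg PND 3, 4.77 for Csn2 in Tg PND 42 SPF, 3.52 for Glycam1 in Tg PND 10, 3.66 for Glycam1 in WT PND 42 SPF, 2.97 for Wap in Tg PND 10 and 3.26 for Wap in Tg PND 42 SPF. Groups of 3, among them both PND 0 groups, were too small for this rule.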

How the results depend on the processing

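In a fit of the compared groups alone, the genes called fell from 7 to 0 at PND 0, from 8 to 3 for PND 3 against PND 0 in Tg mice, from 6 to 0 for the interaction and from 1 to 0 at later ages. The spread is then estimated from fewer arrays, which include the unequal Tg PND 0 pools except at later ages. Of all 28940 features, these fits called 0 at PND 0, 6336 for age in Tg mice and 59 for the interaction, in either direction. A filter on dim features (log2 intensity of 5 in 3 arrays) kept 3 of the 8 genes, Csn2, Csn1s2a and Glycam1, all through the PND 0 pools, and called 3, 3, 3 and 0. A limit of 2-fold left 0 at later ages. With each array left out in turn, the counts ran from 6 to 8 at PND 0, 6 to 8 for age in Tg mice, 0 to 0 for age in WT mice, 5 to 7 for the interaction and 0 to 1 at later ages, where 0 was reached without WT PND 42 GF replicate 2. The replicate block gave 6, 7, 0, 5 and 1 in the same order. The difference of Csn1s1 at PND 0 ran from 1.86 without the library labelled Tg replicate 3 to 4.67 without Tg replicate 2, that of Csn1s2a from 2.72 to 5.04, Csn2 from 2.63 to 5.01, Csn3 from 1.23 to 3.12, Wap from 1.74 to 4.33 and Glycam1 from 2.43 to 5.08, and all 6 genes stayed called in these fits. Csn1s2b was called in 3 of 6 such fits and in 3 of 10 other alternatives. Lalba was at -0.053 without the library labelled Tg replicate 3 and at -0.040 with replicate 3 of both genotypes left out, an alternative chosen after seeing the data, and was called (1.54) without Tg replicate 2 alone. With replicate 3 of both genotypes left out 6 genes were called at PND 0, 6 for age in Tg mice and 6 for the interaction. Another feature of the same symbol could not be tried, as each gene has 1. With 3 pools per genotype at PND 0 and WT values near background, small differences such as that of Csn1s2b are at the limit of these arrays.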
